A study of Mus musculus with 20 samples.

Results

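The replication-dependent histone genes encode the H1 linker histone and the H2A, H2B, H3 and H4 core histones that package newly made DNA. They were taken as the rows named Hist1h to Hist4h that reached 1 TPM in at least 5 of 20 libraries, where TPM is a gene's share of all transcripts corrected for length and scaled to a constant total. The rule found 61 genes among 65 rows with such names and 15422 genes that passed the same filter, out of 34234 rows. Kidney tumours had been grown in mice from MSRT1, a line labelled as renal medullary carcinoma, and total RNA of each tumour was sequenced in bulk. The 4 groups of 5 libraries were GYY_PD1 (PD1 antibody together with GYY4137, which releases hydrogen sulfide slowly), GYY_IgG (GYY4137 with IgG), Veh_PD1 (vehicle with PD1 antibody) and Veh_IgG (vehicle with IgG). GYY_PD1 is called the combination. All tumours share the 1 cell line, and strain, age, dose and duration are not given in the sources used here. The labels call the 5 libraries of a group biological replicates.

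Such genes are mostly intronless and clustered, and are transcribed in S phase, when NPAT activates them at the histone locus body. Some members depart from this. Hist1h2be is annotated from 23583670 to 23621124 with a model of 2480 bases, and Hist4h4 is the only member on chromosome 6. Their messenger RNAs end in a conserved stem-loop instead of a poly(A) tail, and SLBP (stem-loop binding protein) binds it for processing, translation and timed decay. The related variant histones, such as H3f3a, H3f3b, H2afz and H2afx, are made outside S phase as well, mostly from transcripts with poly(A) tails.

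The stem-loop is shown first because it is the element that the class shares and that sets it apart from other messenger RNA. The motif searched was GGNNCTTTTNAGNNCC on the sense strand of each GENCODE M21 transcript model (mouse build mm10). It was found in 38 of the 61 models and in 0.329% of coding genes with a model, 72 of 21877, so that 34 other coding genes held it too. It began 21 to 58 bases after the stop codon, with a median of 31. Of the 23 models without it, 14 were annotated with at most 20 bases after the stop codon and 3 had no coding annotation. The other 6 (Hist1h1a, Hist1h2bc, Hist1h3g, Hist1h4a, Hist2h2be and Hist2h3b) had 37 to 2192 bases after the stop codon. The forms below are given 5′ to 3′ with the 16-base stem-loop in capitals and 5 flanking bases on each side in lower case.
Hist1h1c: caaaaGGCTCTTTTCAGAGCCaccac
Hist1h2bb: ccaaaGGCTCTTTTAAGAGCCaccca
Hist2h2ac: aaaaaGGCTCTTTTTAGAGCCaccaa
Hist1h4h: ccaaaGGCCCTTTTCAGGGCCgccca
Hist1h4i: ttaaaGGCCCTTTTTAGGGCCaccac
Hist1h4b: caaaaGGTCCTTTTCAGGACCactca

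The stem sequence set the H4 models apart from those of the other classes. The forms of Hist1h1c, Hist1h2bb and Hist2h2ac have the same stem and differ only in a loop base. The form of Hist1h1c was the commonest, in 22 models of the H1, H2A, H2B and H3 classes. The form of Hist1h2bb was in 5 models of H2B and H3, and that of Hist2h2ac in 1 model of H2A. The forms of Hist1h4h, Hist1h4i and Hist1h4b were in 6, 2 and 2 models, all of them H4.

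Promoters were read from RefSeq (GRCm38.p6), from 250 bases before to 50 bases after the start, and 53 of the 61 genes matched an entry by name. CCAAT, the box bound by NF-Y, was present on either strand in 84.9% of the matched promoters and in 37.4% of all 32851 promoters of the same length. It was in every matched H1, H2A, H2B and H3 promoter, but in 3 of 11 for H4. TATAAA, the core of the TATA box, was in 60.4% of members against 13.6% of all. ATTTGCAT, the octamer bound by Oct-1 (Pou2f1), was in 6 of 14 H2A and 6 of 14 H2B promoters and in 1.74% of all, and in no H1, H3 or H4 promoter. GGTCCG, letters from the proximal element of H4 promoters that HINFP binds, was in 10 of 11 H4 promoters, against 8.25% of all promoters, and otherwise in 1 H2B and 1 H3 promoter. Letters of TATAAA and ATTTGCAT can overlap at their ends. Windows of H2A and H2B genes that stand back to back can overlap too, as for Hist1h2ae and Hist1h2bg. The same letters can then count in both promoters, so the H2A and H2B counts are not independent. A match is a stretch of letters in this window and says nothing about binding in these tumours. The 150 bases from 140 before to 10 after the start are shown for an H1, an H4 and an H2B gene of high level, with CCAAT, ATTTGCAT and GGTCCG in capitals.
Hist1h1c, chr13:23738667-23738816, plus strand: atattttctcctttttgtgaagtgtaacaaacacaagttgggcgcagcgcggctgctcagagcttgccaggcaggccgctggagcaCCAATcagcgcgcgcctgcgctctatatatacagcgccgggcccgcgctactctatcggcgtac
Hist1h4h, chr13:23530904-23531053, plus strand: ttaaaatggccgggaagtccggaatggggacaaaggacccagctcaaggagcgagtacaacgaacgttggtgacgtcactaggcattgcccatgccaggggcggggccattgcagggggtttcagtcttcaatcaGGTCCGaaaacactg
Hist2h2bb, chr3:96269560-96269709, plus strand: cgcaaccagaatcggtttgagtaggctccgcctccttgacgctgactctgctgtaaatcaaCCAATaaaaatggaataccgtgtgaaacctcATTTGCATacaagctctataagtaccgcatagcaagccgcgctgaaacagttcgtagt

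Levels among the 61 genes were very uneven. Averaged over the 20 libraries, 8 genes reached 100 TPM, 32 reached 10 TPM and 12 stayed under 2 TPM. The 3 highest genes held 38.7% of all histone TPM and the 10 highest held 73.9%. The median member averaged 10.5 TPM, against 6.51 TPM for the median tested gene. Of the 65 rows, 16 were at 1 TPM or more in every library. Just inside the filter lay Hist1h2aj, with 5 libraries at 1 TPM or more and a mean of 0.528 TPM, and Hist1h2ad, with 9 libraries. Just outside lay Hist1h2bq with 2 libraries and Hist1h4m with 1, while Hist1h2ao and Hist1h1t, the testis-specific H1, had 0.

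**Figure D1:**
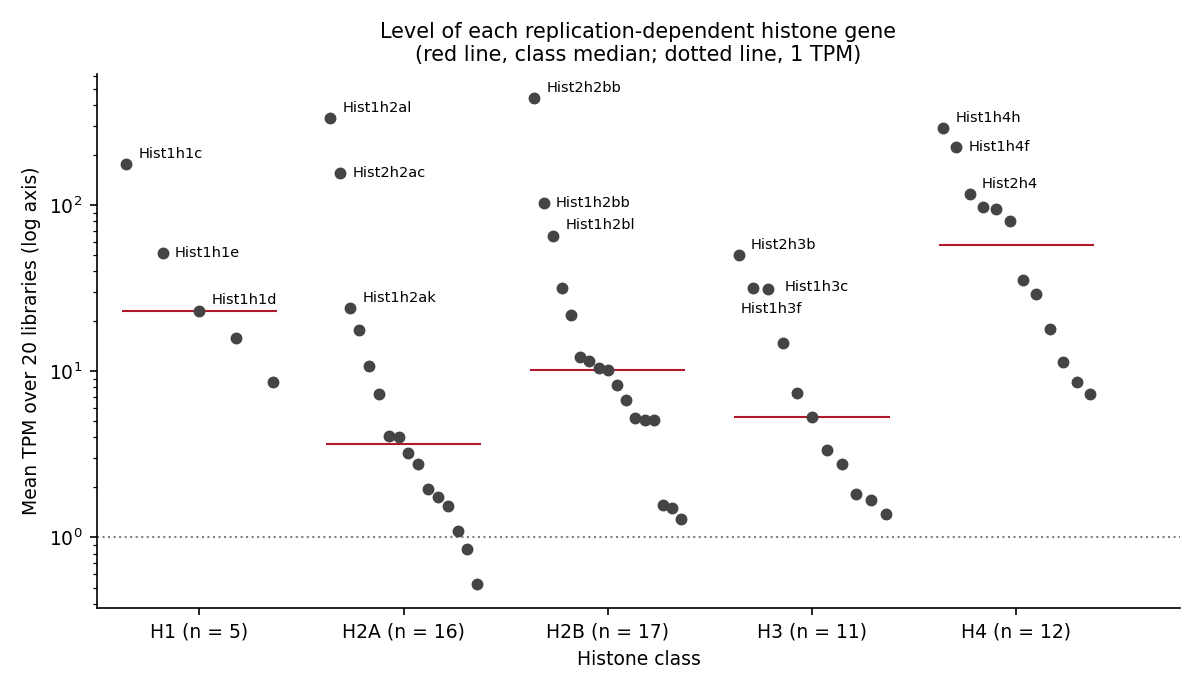
Mean TPM of each of the 61 histone genes over 20 libraries (log axis), by class, with the 3 highest genes of each class named. H4 genes lie higher as a class, while H2A and H2B combine a few genes above 100 TPM with many near or under 10 TPM.

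H4, of which the nucleosome holds as much as of each other core histone, took the largest share of histone TPM, a mean of 36.5%. Hist1h4h (chromosome 13, 23531050 to 23531519) averaged 291 TPM and Hist1h4f 224 TPM, both in the large cluster, and Hist2h4 on chromosome 3 averaged 116 TPM. The lowest of the 12 H4 genes still averaged 7.31 TPM. H2B took 26.6%, led by Hist2h2bb on chromosome 3 (96269752 to 96270132), the highest of all members at 443 TPM, with Hist1h2bb at 103 TPM and Hist1h2bl at 65.5 TPM. H2A took 21.2%. Its leading row, Hist1h2al at 334 TPM, is annotated as a processed pseudogene on chromosome 13 (51202727 to 51203065), far from the cluster. The other leading H2A genes were Hist2h2ac at 157 TPM and Hist1h2ak at 24 TPM. Linker histone H1 took 9.88% through 5 genes, from Hist1h1c at 178 TPM over Hist1h1e at 51.6 TPM and Hist1h1d at 23.2 TPM to Hist1h1a at 8.65 TPM. H3 took only 5.77%, and its highest genes were Hist2h3b at 49.9 TPM, Hist1h3f at 31.9 TPM and Hist1h3c at 31.1 TPM.

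Several of these levels depend on how reads were divided between near-identical copies. Of the 61 models, 58 shared at least 1 stretch of 50 bases with another gene's model, and 27 shared at least 50% of their windows of that length. Hist1h2al shared 67.6% of its windows, most of them with the gene model Gm20634, and Hist2h2bb shared 53.6% with Gm42743, whereas Hist2h4 shared 1.01% and Hist1h1a, Hist1h1b and Hist2h2be shared none. Levels of single members are uncertain where the sharing is high, because the division of shared reads is not known here. Annotated ends matter as well: 20 models run more than 100 bases past the stem-loop, and Hist2h4 runs 1257 bases past it, while Hist2h2bb is annotated without any base after its stop codon. TPM divides by these lengths.

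In 12 places 2 members stand back to back less than 1000 bases apart, 11 of them an H2A beside an H2B gene. The higher gene of a pair exceeded the lower by 2.35 to 29.9 times, with a median of 4.43. The widest gap was between Hist2h2ac at 157 TPM and Hist2h2be at 5.26 TPM, which lie 238 bases apart. Their models are 520 and 2620 bases long, and TPM divides by length, so annotated length enters these ratios. Hist1h2aj and Hist3h2bb-ps, which stand in such pairs, are annotated as pseudogenes.

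Libraries differed in overall make-up before any histone result. The gene model Gm10800, annotated as protein-coding under a provisional name, held 41.4% of all TPM on average in GYY_PD1, 20.2% in GYY_IgG, 26% in Veh_PD1 and 5.73% in Veh_IgG. TPM add to a constant, so what one gene takes is missing from the rest. GYY_PD1 replicates 1 and 4 stood apart, with 8198 and 6659 genes at 1 TPM or more, against 11517 to 15162 in the other libraries. Their medians over tested genes were 0.589 and 0.791 TPM, against 2.89 to 10.9 TPM elsewhere. For this reason the comparisons use log2 TPM minus the median log2 TPM of the 15422 tested genes in the same library, called relative to the library median, and results that include GYY_PD1 are also given without its replicates 1 and 4 where that moved them. Of the 6 tumour genes listed, Krt8 ranged from 8.23 to 370 TPM, Krt18 from 3.14 to 203 TPM and Vim, which host cells express too, from 14 to 948 TPM. The epithelial genes Cdh1, at 0.331 to 23.9 TPM, and Epcam, at 0.304 to 10.7 TPM, were under 1 TPM in some libraries. For Cdh1 these were only GYY_PD1 replicates 1 and 4. Relative to the library median it was at -0.83 and 0.18 there (log2), within the -0.98 to 1.18 of the other libraries. In the same libraries Smarcb1, the chromatin remodelling subunit that renal medullary carcinoma typically lacks, was at 1.17 to 46.6 TPM. RNA of host cells is in these bulk samples, and fewer cells of a type and less RNA per cell cannot be told apart in them.

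Summed over the 61 genes, histone TPM was 84.3, 2554, 1692, 237 and 1846 in GYY_PD1, 5386, 4139, 1711, 1394 and 4728 in GYY_IgG, 1229, 4092, 3281, 1530 and 916 in Veh_PD1, and 4655, 2697, 3773, 3324 and 5909 in Veh_IgG (replicates 1 to 5). On this deposited scale every combination library was below every Veh_IgG library, while the GYY_IgG and Veh_PD1 libraries spread across both ranges. Divided by the library median, the sums came to 143, 445, 322, 300 and 427 in GYY_PD1, 531, 392, 504, 412 and 484 in GYY_IgG, 425, 458, 443, 376 and 306 in Veh_PD1, and 426, 365, 471, 425 and 647 in Veh_IgG. The groups then overlapped: means were 327 ± 121, 465 ± 60, 402 ± 61.6 and 467 ± 107 in the same order (SD, n = 5 each). GYY_PD1 replicate 1 was the lowest of all, and Veh_IgG replicate 5 the highest.

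**Figure D2:**
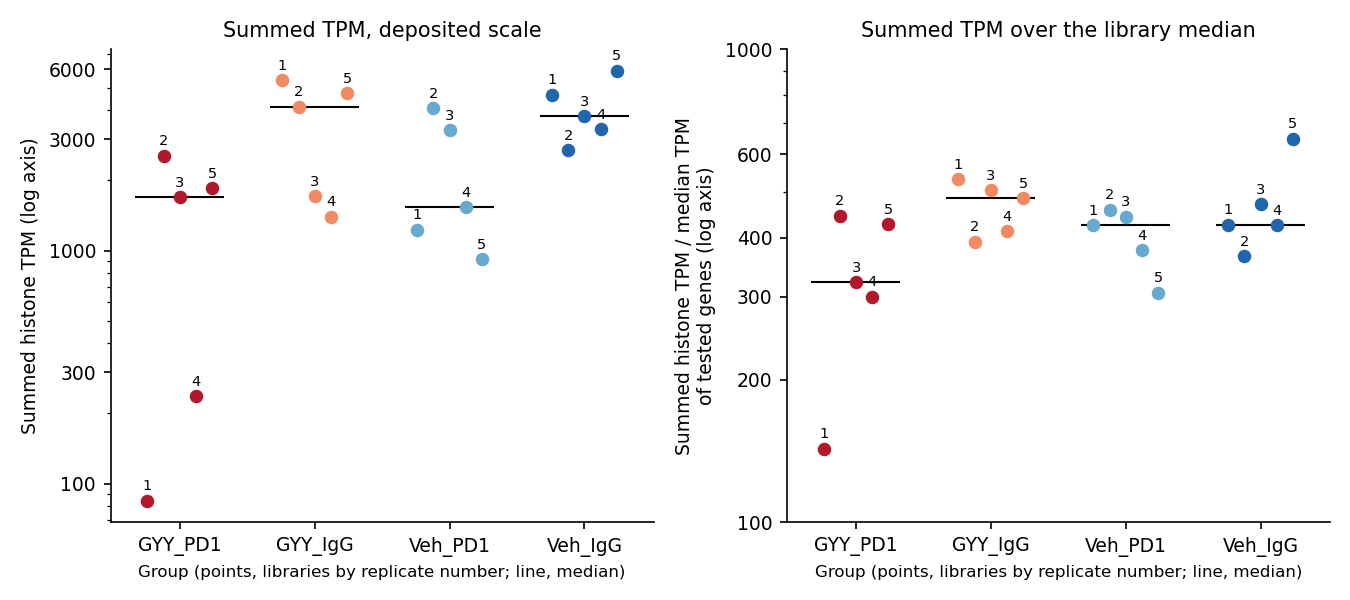
Summed TPM of the 61 histone genes per library as deposited (left) and divided by the median TPM of tested genes (right), on log axes, with replicate numbers and group medians. The low values of GYY_PD1 replicates 1 and 4 on the left (84.3 and 237 TPM) move to 143 and 300 times the library median on the right, where the groups overlap.

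The make-up of the histone pool was read as the share of each class. H4 held 35.9 ± 3.78% of histone TPM in GYY_PD1, 37.5 ± 2.1% in GYY_IgG, 36.5 ± 2.32% in Veh_PD1 and 36.3 ± 1.42% in Veh_IgG (SD, n = 5 each). H1 held 9.84 ± 0.908%, 9.78 ± 0.688%, 9.15 ± 1.9% and 10.7 ± 2.11% in the same order of groups. H2A held 23 ± 5.48%, 21.2 ± 1.83%, 20.1 ± 1.02% and 20.5 ± 0.537%. The ranges of the groups overlapped in each of these 3 classes. H2B held 24.6 ± 3.57% in GYY_PD1, 25.9 ± 1.27% in GYY_IgG, 29.2 ± 3.34% in Veh_PD1 and 26.7 ± 2.25% in Veh_IgG, and H3 6.64 ± 1.72%, 5.59 ± 0.282%, 5.14 ± 0.955% and 5.73 ± 0.385%. The H2B and H3 shares of the groups overlapped too, and no test was run on shares. GYY_PD1 replicate 1 again differed, with 32.7% in H2A and 18.6% in H2B, against 18.7 to 23.3% in H2A and 24.1 to 34.6% in H2B in the other libraries. In that library 20 of the 61 members were listed at 0, and in replicate 4 of the group 8 were. Of the 22 members at 0 in any library, 12 were at 0 outside GYY_PD1 replicate 1.

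The combination was compared with Veh_IgG to ask what both treatments did together. No member passed the threshold (limma, adjusted p under 0.05 over all tested genes), and neither did any other gene, so that the background of calls was 0%. At an unadjusted p under 0.05 there were 17 members lower and 2 higher in the combination, against 11.4% of all tested genes lower and 5.5% higher. The median of the 61 differences was -0.64 on the log2 scale, with 50 lower and 11 higher, beside -0.17 over all tested genes. Without GYY_PD1 replicates 1 and 4 the median was -0.09, with 34 lower and 27 higher, and 3 members had an unadjusted p under 0.05, 4.92% against 7.93% of all tested genes. The class medians were -0.36 for H1, -0.72 for H2A, -0.68 for H2B, -0.82 for H3 and -0.67 for H4, and without those libraries -0.26, -0.15, 0.15, 0.18 and -0.16 in the same order.

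The member with the smallest p in this comparison was Hist1h3f, an H3 gene of the large cluster. Relative to the library median its log2 values were 0.41, 2.14, 1.81, 1.37 and 2.39 in GYY_PD1, against 2.25, 2.10, 2.67, 2.34 and 2.99 in Veh_IgG. The ranges overlapped, and replicate 1 lay far under the rest. The difference was -0.85 (SE 0.28, limma adjusted p = 0.237), and -0.36 (SE 0.21, adjusted p = 0.712) without the 2 libraries. Hist1h1e, a linker histone, had log2 values of 1.83, 2.83, 2.65, 2.28 and 2.96 in GYY_PD1, against 3.15, 2.34, 3.61, 3.07 and 3.57 in Veh_IgG. These too overlapped, with a difference of -0.64 (SE 0.23, limma adjusted p = 0.243), and -0.33 (SE 0.22, adjusted p = 0.745) without the 2 libraries. Next by p came Hist1h2ae, a low H2A gene, at 0, 1.28, 3.00, 0 and 0.225 TPM in GYY_PD1, against 4.19, 0.973, 1.53, 4.16 and 3.85 TPM in Veh_IgG. It was listed at 0 in the 2 libraries that stood apart, and its fitted difference of -3.01 (SE 1.10, limma adjusted p = 0.245) rests on the value at which the table writes 0, and was -0.64 (SE 0.60, adjusted p = 0.833) without them.

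The 4 members next described were among the most abundant. Hist2h2bb had log2 values of 3.47, 6.09, 5.35, 5.51 and 5.92 in GYY_PD1, against 6, 6.08, 6.19, 5.95 and 6.68 in Veh_IgG, a difference of -0.91 (SE 0.37, limma adjusted p = 0.261). GYY_PD1 replicate 2 lay within the range of Veh_IgG and the other 4 combination libraries lay under it. For Hist1h4h the values were 3.00, 5.53, 5.15, 5.12 and 5.41, against 5.55, 5.24, 5.56, 5.64 and 5.84, a difference of -0.73 (SE 0.34, adjusted p = 0.292). Here replicates 2 and 5 of the combination lay within the range of Veh_IgG. Hist1h1c, the most abundant linker histone, differed by -0.92 (SE 0.36, adjusted p = 0.257) and Hist1h2al by -0.80 (SE 0.34, adjusted p = 0.274). Without replicates 1 and 4 of the combination the differences were -0.40 for Hist2h2bb, -0.21 for Hist1h4h, -0.32 for Hist1h1c and -0.23 for Hist1h2al. Hist2h3b, the highest H3 gene, was the 1 member whose groups did not overlap, at 0.59, 2.79, 2.85, 2.71 and 2.68 in GYY_PD1, against 2.97, 2.87, 3.23, 3.08 and 3.58 in Veh_IgG. Among all tested genes 1.63% were lower without overlap and 1.63% higher. Its difference was -0.82 (SE 0.35, limma adjusted p = 0.274), and -0.37 (SE 0.23, adjusted p = 0.738) without the 2 libraries.

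**Figure D3:**
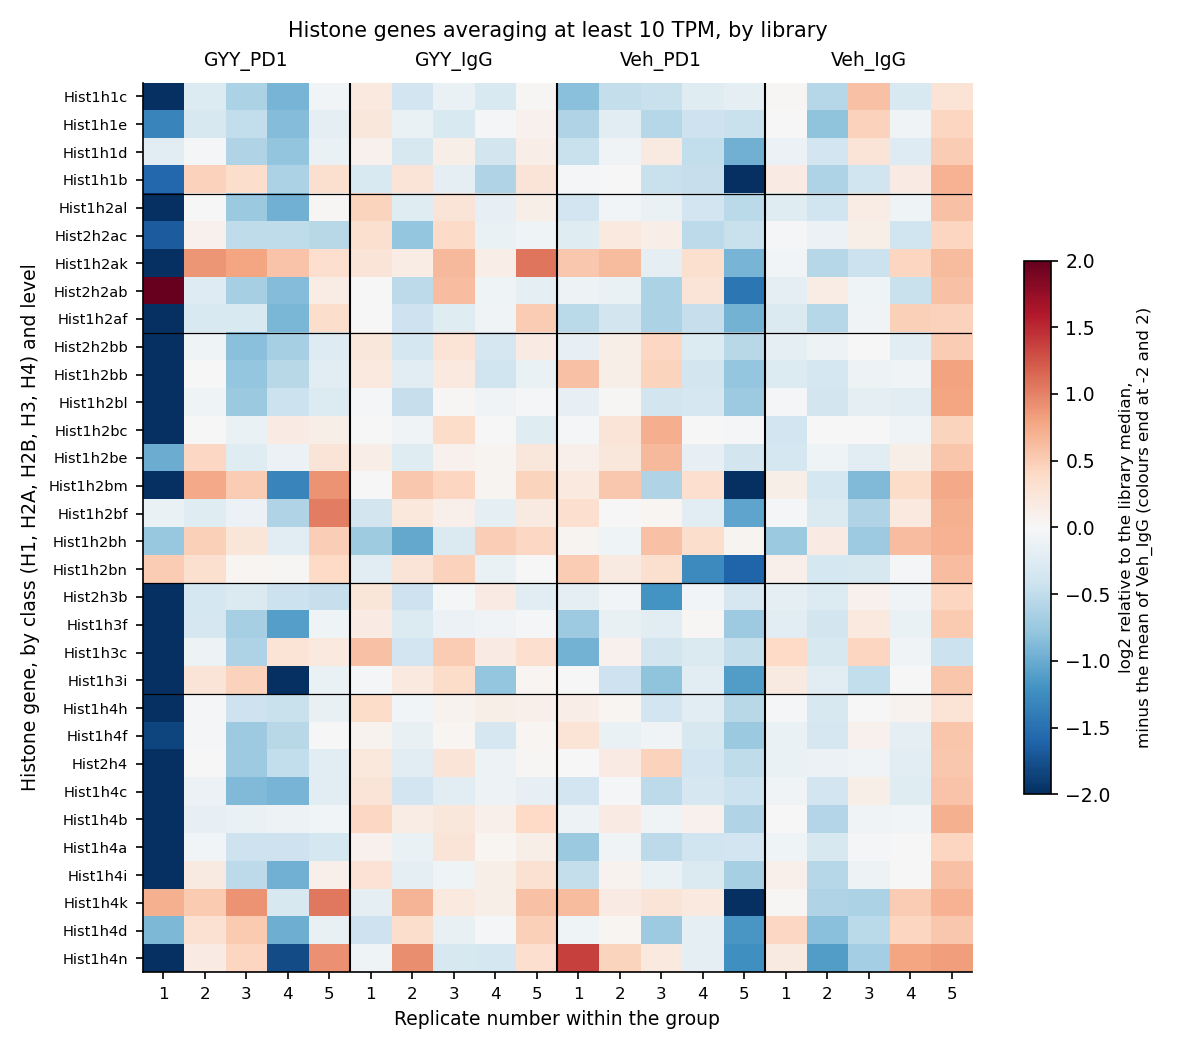
log2 TPM relative to the library median, minus the mean of Veh_IgG, for the 32 histone genes that averaged at least 10 TPM, by library (replicate numbers along the bottom). Colours end at -2 and 2. The dark blue column is GYY_PD1 replicate 1, in which Hist2h2ab and Hist1h4k stand out as high, and Veh_PD1 replicate 5 is blue and Veh_IgG replicate 5 red across most rows.

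GYY4137 given with IgG was compared with Veh_IgG to ask for the effect of the donor alone. No member and no other gene passed the threshold (0% called), and 0 of the 61 members had an unadjusted p under 0.05, against 1.15% of tested genes. The median difference was -0.02, with 29 members higher and 32 lower, beside -0.01 over all tested genes. Every H1 gene lay within 0.12 of no difference on the log2 scale, from -0.12 to -0.03, and the H4 genes from -0.21 to 0.28. Hist1h3e had the smallest p, with a difference of -0.38 (SE 0.32, limma adjusted p = 1). The 3 largest differences, 2.50 (SE 2.21) for Hist1h2ba, 2.46 (SE 2.45) for Hist1h2aj and 1.77 (SE 1.63) for Hist1h2ag, belonged to genes listed at 0 in 1 Veh_IgG library each (limma adjusted p = 1 for all).

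PD1 antibody with vehicle was compared with Veh_IgG to ask for the effect of the antibody alone. Again 0 of 61 members passed, beside 0% of tested genes, and 1 member had an unadjusted p under 0.05, against 1.77% of tested genes. That member was Hist1h3e, at log2 values of 0.25, -0.16, -0.64, -0.36 and -0.97 in Veh_PD1, against 0.69, -0.52, 0.09, 0.65 and 1.10 in Veh_IgG. The groups overlapped, and the difference was -0.78 (SE 0.32, limma adjusted p = 1). Of the 61 members, 47 were lower and 14 higher, with a median of -0.30 beside -0.04 over all tested genes. All 5 linker histone genes had negative differences, between -0.81 and -0.36, with -0.45 (SE 0.23) for Hist1h1e and -0.36 (SE 0.22) for Hist1h1d (limma adjusted p = 1 for both). For Hist1h1d the difference was -0.21 without Veh_PD1 replicate 5 and -0.23 without Veh_IgG replicate 5. The median over the members was -0.11 without Veh_PD1 replicate 5, the library with the lowest mean over the members in that group (-0.15). In this comparison Hist3h2a, named after its values were seen, was the 1 member that was higher without overlap, against 0.473% of tested genes. The lowest Veh_PD1 and the highest Veh_IgG library both rounded to -2.38. This gene averaged 1.1 TPM, and in TPM its groups overlapped, at 0.574 to 2.22 in Veh_PD1 and 1.19 to 1.49 in Veh_IgG.

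Adding GYY4137 to the antibody was read from GYY_PD1 against Veh_PD1. The threshold was passed by 0 members and by 0.00648% of tested genes, 1 gene in all, and 8 members had an unadjusted p under 0.05, against 12.9% of tested genes (7 members against 8.46% without GYY_PD1 replicates 1 and 4). The median difference was -0.46, and 0.16 without GYY_PD1 replicates 1 and 4, so its sign depended on those 2 libraries. Hist1h3h, an H3 gene, had log2 values of 1.97, -0.40, 0.43, -0.10 and 0.01 in GYY_PD1, against 0.55, -0.65, -1.13, -1.24 and -1.13 in Veh_PD1, a difference of 1.10 (SE 0.42, limma adjusted p = 0.343). For Hist1h3e the values were 1.13, 0.23, 0.82, 0.05 and 0.09, against 0.25, -0.16, -0.64, -0.36 and -0.97, a difference of 0.84 (SE 0.32, adjusted p = 0.343). Leaving the 2 libraries out gave values of 0.74 (SE 0.39, adjusted p = 0.623) for Hist1h3h and 0.75 (SE 0.36, adjusted p = 0.589) for Hist1h3e. In both genes 1 Veh_PD1 library lay within the range of the combination. Hist1h2ae differed by -2.88 (SE 1.10, limma adjusted p = 0.343), and by -0.52 (SE 0.60, adjusted p = 0.828) without the libraries listed at 0. No member was free of overlap here, against 0.376% of tested genes higher and 0.687% lower.

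Adding the antibody to GYY4137 was read from GYY_PD1 against GYY_IgG. Here too 0 members and 0% of tested genes passed, with 16 members at an unadjusted p under 0.05, against 9.77% of tested genes. That count was 2 members without GYY_PD1 replicates 1 and 4, against 3.53% of tested genes. The median difference was -0.77 beside -0.17 over all tested genes, and was -0.02 without GYY_PD1 replicates 1 and 4. Hist1h3a, a low H3 gene, had the smallest p and was the 1 member higher without overlap, against 0.428% of tested genes. Its log2 values were 0.41, -2.35, -1.83, -0.62 and -0.88 in GYY_PD1, against -2.47, -2.74, -3.86, -4.09 and -2.61 in GYY_IgG, a difference of 2.10 (SE 0.68, limma adjusted p = 0.461). In TPM this gene did not exceed 2.35 in either group. Without GYY_PD1 replicates 1 and 4 the difference of Hist1h3a was 1.47 (SE 0.74, adjusted p = 1). Hist1h2ae differed by -3.16 (SE 1.10, limma adjusted p = 0.461) and Hist1h3f by -0.78 (SE 0.28, adjusted p = 0.461), and without the 2 libraries, where Hist1h2ae was listed at 0, by -0.80 (SE 0.60) and -0.29 (SE 0.21, adjusted p = 1 for both). Lower without overlap was Hist1h4b, named after its values were seen, against 0.532% of tested genes.

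The interaction asks whether the effect of GYY4137 differed between the antibody arms. It was passed by 0 members and 0% of tested genes, with 2 members at an unadjusted p under 0.05, against 2.44% of tested genes. Those were Hist1h3e at 1.22 (SE 0.45) and Hist1h3h at 1.29 (SE 0.60), followed by Hist1h2ae at -3.04 (SE 1.55), all with a limma adjusted p of 0.875. Without GYY_PD1 replicates 1 and 4 they were 1.13 (SE 0.47), 0.93 (SE 0.52) and -0.67 (SE 0.80) in the same order, all with an adjusted p of 0.999. The 6 comparisons share libraries, and GYY_PD1 stands in 4 of them, so that their differences are not independent of each other.

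**Figure D4:**
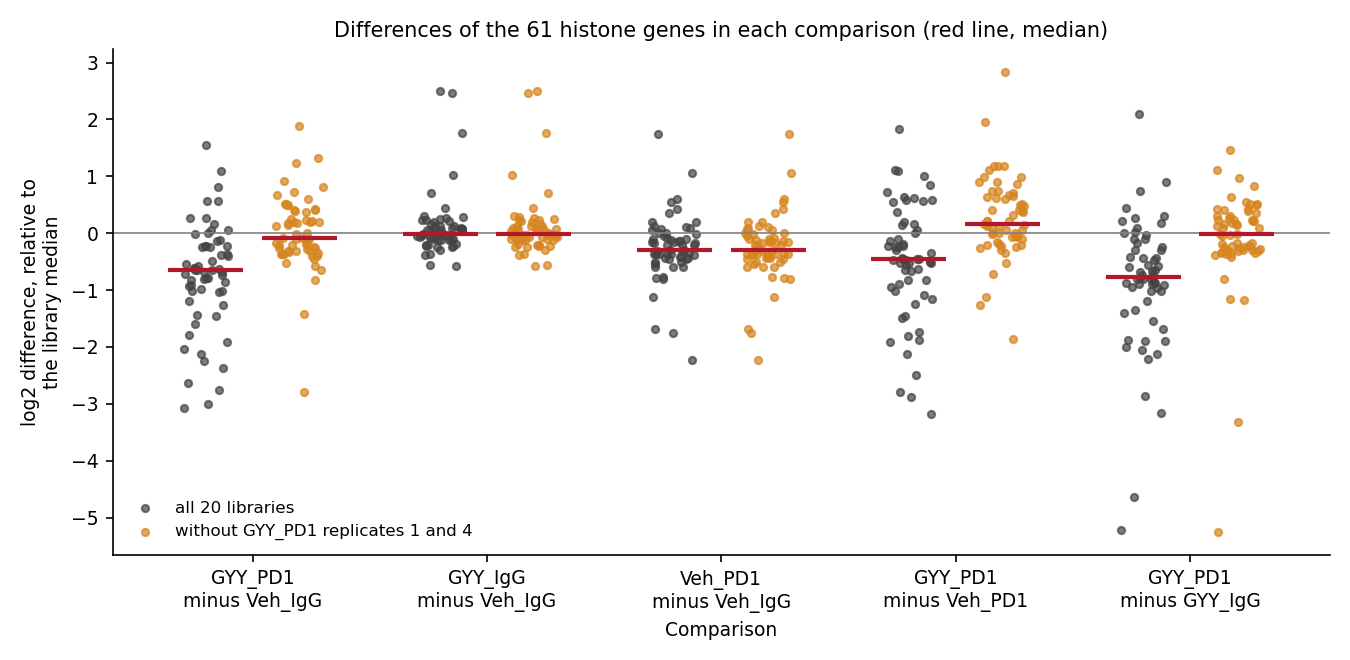
log2 differences relative to the library median of the 61 histone genes in the 5 comparisons between groups, over all 20 libraries (grey) and without GYY_PD1 replicates 1 and 4 (orange); red lines are medians. Each point is 1 gene. The medians of the 3 comparisons that hold GYY_PD1 are -0.64, -0.46 and -0.77 in grey and -0.09, 0.16 and -0.02 in orange.

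On the scale as deposited, without subtracting the library median, the combination looked different. There 42 of 61 members were lower than in Veh_IgG with an adjusted p under 0.05 (limma), and none higher, but so were 69.9% of all tested genes, while 0.311% were higher (70.2% in either direction). The median member differed by -2.56 and the median tested gene by -2.09. In the donor-alone and antibody-alone comparisons 0 members and 0% of tested genes passed on that scale. There 0 and 2 members had an unadjusted p under 0.05, against 0.486% and 1.45% of tested genes. In GYY_PD1 against Veh_PD1 0 members passed beside 0.0778% of tested genes, all lower, and in GYY_PD1 against GYY_IgG 0 members beside 0.0648%, all lower. In these 7 and 35 members had an unadjusted p under 0.05, against 11.2% and 58.8% of tested genes.

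The machinery that makes and processes histone messages was read from lists. Of 19 tested genes for stem-loop processing and transcription, 0 passed in any comparison. In the combination against Veh_IgG 16 were lower and 3 higher. The median of the 19 was -0.29, beside -0.17 over all tested genes. Without GYY_PD1 replicates 1 and 4 it was -0.07, beside -0.04. Slbp had 0.732, 21, 13.2, 2.29 and 14.6 TPM in GYY_PD1, against 32, 21.1, 24.5, 23.9 and 36.4 TPM in Veh_IgG. Relative to the library median the difference was -0.30 (SE 0.22, limma adjusted p = 0.424), and -0.00 (SE 0.16, adjusted p = 0.997) without GYY_PD1 replicates 1 and 4. Npat, the histone gene activator, differed by -0.27 (SE 0.16, adjusted p = 0.351), and -0.11 (SE 0.15, adjusted p = 0.914) without the 2 libraries. The smallest p values of the list belonged to Cstf2, a cleavage factor, at -0.53 (SE 0.20, limma adjusted p = 0.461) in GYY_PD1 against GYY_IgG, and to Tut7, a uridylyltransferase that acts in histone message decay, at 0.27 (SE 0.11, adjusted p = 0.266) in the combination against Veh_IgG. Without GYY_PD1 replicates 1 and 4 these were -0.29 (SE 0.11, adjusted p = 1) for Cstf2 and 0.21 (SE 0.11, adjusted p = 0.673) for Tut7.

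Genes of DNA replication and mitosis were read in the same way. In the combination against Veh_IgG, 25 of 30 replication genes and 17 of 18 mitosis genes were lower, and 0 passed. The medians were -0.27 and -0.42, beside -0.17 over all tested genes. Tyms, which makes thymidylate, differed by -1.30 (SE 0.46, limma adjusted p = 0.242), Pcna, the replication clamp, by -0.83 (SE 0.32, adjusted p = 0.257), and Ccnb1 (cyclin B1) by -0.79 (SE 0.27, adjusted p = 0.237). Histone chaperones had a median of -0.28 over 21 genes, and Asf1b, which hands H3 and H4 to the chromatin assembly factor, differed by -0.59 (SE 0.17, limma adjusted p = 0.214). Leaving out GYY_PD1 replicates 1 and 4 gave differences of -0.41 (SE 0.24) for Tyms, -0.30 (SE 0.17) for Pcna, -0.36 (SE 0.22) for Ccnb1 and -0.49 (SE 0.19) for Asf1b. The list medians were then -0.11 for replication, -0.26 for mitosis and -0.09 for chaperones, beside -0.04 over all tested genes. Lower values were not particular to the combination. In the same fit, 27 of 30 replication genes and 18 of 18 mitosis genes were lower in Veh_PD1 than in Veh_IgG. Their medians were -0.19 and -0.25, beside -0.04 over all tested genes. GYY_PD1 against Veh_PD1 gave medians of 0.07 and 0.06.

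Variant histones, made outside S phase too, gave negative differences in all 9 tested genes in the combination against Veh_IgG. Their median was -0.61, none passed, and the median was -0.35 without the 2 libraries. H2afz differed by -0.64 (SE 0.22, limma adjusted p = 0.241), H2afx by -0.69 (SE 0.25, adjusted p = 0.243), H3f3b by -0.76 (SE 0.27, adjusted p = 0.243), H3f3a by -0.42 (SE 0.35, adjusted p = 0.460) and H1f0, the replacement linker histone, by -0.77 (SE 0.25, adjusted p = 0.231). Without the 2 libraries the differences were -0.35 for H2afz, -0.37 for H2afx, -0.39 for H3f3b, -0.03 for H3f3a and -0.46 for H1f0. On the per-length TPM scale H3f3b had 4.67, 158, 116, 19 and 126 TPM in GYY_PD1, against 345, 193, 384, 220 and 382 TPM in Veh_IgG. Hist2h3b, the highest replication-dependent H3 gene, was lower than H3f3b in each of these libraries, at 0.889, 39.8, 37.8, 5.17 and 27.7 TPM in GYY_PD1, against 85.4, 53.9, 75.3, 66.2 and 110 TPM in Veh_IgG. Of 8 germline histone genes 2 reached the filter, Hist1h2ba and Hist3h2ba, and both are counted among the members.

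Markers of other cell types moved in the same comparison, with none past the threshold. Relative to the library median, all 5 tested T cell markers were higher in the combination than in Veh_IgG, with a median of 2.01 (Cd3e 2.37, SE 0.64, limma adjusted p = 0.209), and all 5 erythroid markers were lower, with a median of -3.35. Their summed levels were 0.91 to 13.7 TPM in GYY_PD1 against 1.95 to 5.09 TPM in Veh_IgG for T cells, and 0.964 to 62 TPM against 136 to 304 TPM for erythroid cells. Fibroblast markers had a median of 1.04, endothelial 0.64, adipocyte 2.57, kidney proximal tubule 1.19, neutrophil 0.06, macrophage -0.29 and tumour identity genes -0.15. GYY_PD1 replicate 3 was high for adipocyte and fibroblast markers, and without it their medians were 1.20 and 0.18. It was also the highest of its group for endothelial markers (74.8 TPM, next 24.3) and kidney proximal tubule markers (26.6 TPM, next 8.03). Leaving out GYY_PD1 replicates 1 and 4 gave 1.97 for T cells and -1.85 for erythroid cells. The other medians were then 1.56 for fibroblast, 0.75 for endothelial, 4.17 for adipocyte, 1.58 for kidney proximal tubule and 1.13 for neutrophil markers. Macrophage markers, at 0.07, and tumour identity genes, at 0.10, changed sign. No marker present in the table was at 0 in every library of a group. The part of these cells in the histone values was not tested.

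Across libraries the members did not move as one. Over the 18 libraries other than GYY_PD1 replicates 1 and 4, the median Pearson r between 2 members was 0.26 over 1830 pairs, and 80.3% of pairs were above 0 (values scaled to the library median, log2 after adding 1). Among the 32 members averaging at least 10 TPM the median was 0.45. The closest pair was Hist2h2bb with Hist2h4 at 0.96, both on chromosome 3. Among those 32, the r with the mean of 30 replication genes ran from -0.17 for Hist1h2bh to 0.87 for Hist1h4i, with a median of 0.48. For tested genes outside that list the median was 0.06, but these were taken without the cut at 10 TPM. Of the 32 members Hist1h2bc, at 0.08, was the closest to 0, and Hist1h2ak was at 0.17. All these points share libraries and their composition, and low members add noise of their own.

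The tested genes most like the mean of the 61 members over all 20 libraries were Kdelc1 (r = 0.925), Tpst1 (0.922), Tyms (0.92), Mob1a (0.918), Mrpl42 (0.915), Pycrl (0.913), Idh3a (0.91), Nde1 (0.906), Cip2a (0.905) and Hspd1-ps3 (0.903). With GYY_PD1 replicates 1 and 4 left out none of these was among the 10 nearest, which were led by Lfng (0.849), Lims1 (0.807) and Phf11a (0.796) and held the provisional gene Gm3571 (0.773). The mean used here counts members listed at 0 at the value at which 0 is written. In GYY_PD1 replicate 1, with 20 members at 0, it was -1.88, while the median over the members was 0.41. Members at 0 in other libraries enter the second list in the same way.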

How the data were processed

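Total RNA of 20 kidney tumours (4 groups of 5) was measured. The authors deposited log2 TPM with no constant added, in which 0 TPM is written as -8.88. The submitters' processing notes name HTSeq 0.11.0, Salmon 0.14.1, fastp, cutadapt and the build mm10. Which tool made the TPM, and whether strand was used, are not given in the sources used here. TPM keep no depth: read numbers are unknown, and neither intervals nor count tests were computed.

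From these values the library median of 15422 tested genes (at least 1 TPM in 5 libraries) was subtracted, and limma 3.58.1 (R 4.3.3) was fitted as 1 model of the 4 groups with trended shrinkage, two-sided, with Benjamini-Hochberg adjustment over all tested genes, in 6 comparisons. The fit was tested on simulated data. Correlations and sums used Python 3.11.15.

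The members, lists and comparisons were chosen with earlier results of these data known. Members were named as the 3 highest of each class and the 3 of smallest p in each comparison, other genes as up to 4 of smallest p in each list and the 10 most alike in pattern, and further members only as ends of a range or examples of a count. Alternatives tried were other scalings, pseudocounts and filters, library weights, pairwise fits, a replicate block and leaving out libraries. Gene models came from GENCODE M21 and promoters from RefSeq.

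Same-numbered replicates of different groups did not deviate together: correlations of 30 pairs ran from -0.085 to 0.109.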

Additional observations from a re-analysis of the deposited data

Results flagged for a closer look

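In groups of 5, a library was marked where its gap to the nearest other took most of the group's range (Dixon's test), which chance does in about 1 of 20 groups. Of 72 groups examined (the 3 highest members of each class and 3 summaries over all members, each in 4 groups), 10 were marked, 6 of them for GYY_PD1 replicate 1. Members and summaries were read in the same libraries, and the summaries include those members, so the marks are not independent of each other. Values are log2 relative to the library median.

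GYY_PD1 replicate 1 lay far under the other combination libraries for Hist1h2ak (-8.12, where the gene is listed at 0, against 1.95 to 2.49), Hist1h2bb (0.51 against 3.29 to 4.05), Hist1h2bl (1.15 against 2.77 to 3.42), Hist1h4h (3.00 against 5.12 to 5.53), Hist2h2bb (3.47 against 5.35 to 6.09) and Hist2h3b (0.59 against 2.68 to 2.85). Veh_IgG replicate 5 lay above its group for Hist1h2bb (4.86 against 3.71 to 3.98) and Hist2h4 (4.77 against 4.02 to 4.16). GYY_IgG replicate 2 was low for Hist1h2bl (3.05 against 3.44 to 3.54), and Veh_PD1 replicate 3 was low for Hist2h3b (1.95 against 2.81 to 3.09). No cause was tested for any of these.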

How the results depend on the processing

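In 5 of the 6 comparisons no member was called under any setting run. In the combination against Veh_IgG the deposited scale called 42 members (10831 of all genes) and rescaling to coding genes 54 (12405 genes). The coding set keeps Gm10800; rescaling to named coding genes without it, added after seeing the data, called 0. Median differences over the members moved as follows. On the deposited scale they were -2.56 (GYY_PD1 against Veh_IgG), -1.16 (Veh_PD1 against Veh_IgG), -1.52 (GYY_PD1 against Veh_PD1), -2.30 (GYY_PD1 against GYY_IgG) and -1.07 (interaction). Rescaled to coding genes they were -2.26, -1.29, -1.03 and -1.53 in the first 4 of these and -0.72 in GYY_IgG against Veh_IgG. Without GYY_PD1 replicates 1 and 4 they were -0.09 (GYY_PD1 against Veh_IgG), 0.16 (against Veh_PD1), -0.02 (against GYY_IgG) and 0.15 (interaction), and -0.03, 0.13, 0.00 and 0.12 when values were also scaled with 1 added, an alternative chosen after seeing the data. In GYY_PD1 against GYY_IgG library weights gave -0.22, and leaving out GYY_PD1 replicate 1 with GYY_IgG replicate 5, whose labels are numbered apart, gave -0.26. The difference in log2 summed TPM, -2.50 in GYY_PD1 against Veh_IgG and -2.12 against GYY_IgG, was -0.72 and -0.78 after rescaling to named coding genes.

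Leaving out 1 library at a time called 0 members in all comparisons. Medians then ran from -0.82 to -0.30 (GYY_PD1 against Veh_IgG), -0.10 to 0.13 (GYY_IgG against Veh_IgG), -0.40 to -0.11 (Veh_PD1 against Veh_IgG), -0.61 to -0.02 (GYY_PD1 against Veh_PD1), -0.91 to -0.26 (GYY_PD1 against GYY_IgG) and -0.57 to 0.03 (interaction). Signs turned for Hist1h2ag in GYY_IgG against Veh_IgG (-0.03 rescaled to coding genes, -0.18 without Veh_IgG replicate 2, at most 2.39 in that series), and in GYY_PD1 against Veh_PD1 for Hist1h3h (-0.15 rescaled to coding genes) and Hist1h3e (-0.21 on the deposited scale, -0.36 rescaled to coding genes). The cause was not tested. The replicate block kept every result on its side of the threshold, with a median of -0.64 and 0 members called in GYY_PD1 against Veh_IgG; 7 of 20 libraries correlated best with their own number. Read depth is unknown, and values of low members listed at 0 limit what could be detected.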

Other observations

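Among members averaging at least 10 TPM, the 8 in the stretch of chromosome 13 from 21715763 to 21832196 (Hist1h1b, Hist1h2ak, Hist1h2bl, Hist1h2bm, Hist1h2bn, Hist1h3i, Hist1h4k and Hist1h4n) varied together over the 18 libraries other than GYY_PD1 replicates 1 and 4. Their median pairwise r was 0.69 (28 pairs, 0.28 to 0.92). Pairs of 1 of these genes with 1 from the stretch 23531050 to 23764406 had a median of 0.37, and pairs within that stretch 0.45 (136 pairs each). Without Veh_PD1 replicate 5, in which several of the 8 were low, the medians were 0.54, 0.20 and 0.38. This grouping was noticed in the data, all points share libraries, and coordinates are those of mm10.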
